A study of Homo sapiens and Mus musculus with 7 samples.

Results

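The genes described here are 31 well-known targets of the transcription factor p53. Membership goes by gene name and uses no measured value, although the list was proposed with earlier results of these arrays known. A probe set counted as a member when its single annotated gene symbol was on that list, ignoring case for mouse. On the human arrays 68 of 41091 single-symbol probe sets fell to 29 members, out of 19775 genes. On the mouse arrays 53 of 34945 fell to 24 members, out of 18193 genes, and 23 members were found in both tables. BTG2 and FDXR were not analysed in the human table. TP53I3, FDXR, TP53INP1, GDF15, TNFRSF10C, TNFRSF10D and TRIM22 were not analysed in the mouse table.

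The study asked what the loss of Fas (CD95), a death receptor on the cell surface, does to gene expression, with 7 Affymetrix arrays of total RNA and 1 array in each of 7 groups. The ovarian cancer line HeyA8 gave a PLKO control and stable FAS knock-downs by the hairpins shRNA4 and shRNA6. The liver cancer line HepG2 gave a PLKO control and a stable knock-down by shRNA6. PLKO is the lentiviral backbone from which such hairpins are expressed, so all 5 human samples carry a vector, and the labels do not say whether a line was a single clone. Liver came from male C57/BL6 mice aged 2 months, wild type or Fas knock-out, and neither the allele nor the number of animals per array is stated in the labels. With 1 array per group no single comparison could be tested, and in the liver, a bulk tissue, fewer cells of a type and less RNA per cell cannot be told apart.

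FAS, which is also a textbook p53 target, had HeyA8 signals of 2104 (control), 1184 (shRNA4) and 856 (shRNA6), and HepG2 signals of 1087 (control) and 631 (shRNA6). Mouse Fas was at 560.2 in wild-type and 169 in knockout liver. All 7 measured hepatocyte markers were above the array median in HepG2 and in both livers, against 1 to 2 of 7 in HeyA8. Of 6 markers listed for the ovarian line, 5 were above the median in HeyA8, but 4 to 5 were in HepG2 too. Array medians were at most 63.5 in human and were 80.1 and 75.4 in mouse.

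p53 is held at a low level in unstressed cells by MDM2, an enzyme that marks it for destruction and is itself switched on by p53. After DNA damage or other stress p53 accumulates, binds paired half-sites in DNA and raises genes that stop the cell cycle, repair DNA, adjust metabolism or start apoptosis. In the liver it is known for limiting growth after injury.

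To show what p53 binds in these genes, the windows around annotated starts (RefSeq, GRCh38.p14, 250 bases before to 50 after) were searched for the p53 half-site consensus, which is its own reverse complement, so that both strands were read together. Windows were found for 23 of the 31 members, 34 windows in all. An exact half-site stood in 6 of these 34 and in 2329 of all 35116 windows (6.63%). A pair of half-sites with at most 1 mismatch each and at most 3 bases between them stood in 587 of all windows (1.67%) and in windows of 2 members, DDB2 and MDM2. An exact pair was found in 7 of all windows (0.0199%), among them that of DDB2. The sites are shown here because MDM2 and DDB2 return in every comparison, with half-sites in capitals and read 5′ to 3′ along the gene.
DDB2, chr11:47214975-47215003, plus strand: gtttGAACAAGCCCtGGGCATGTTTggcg
MDM2, chr12:68808919-68808946, plus strand: agctGGTCAAGTTCAGACACGTTCcgaa
Single exact half-sites, each shown with 10 bases on either side, lay upstream of the start in FDXR, PLK2, RPS27L, SESN1 and AEN, and the last 4 are shown because all were higher with shRNA4 than in the HeyA8 control.
PLK2, chr5:58460199-58460228, minus strand: tggcgggacaAGACTTGCTTcccggccacg
RPS27L, chr15:63157517-63157546, minus strand: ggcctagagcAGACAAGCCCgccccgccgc
SESN1, chr6:109009018-109009047, minus strand: attgtcgtctGGACAAGTCTccacaagtca
AEN, chr15:88621296-88621325, plus strand: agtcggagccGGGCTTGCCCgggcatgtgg
A match of letters is a description of the window and not a measured binding site, and many p53 sites lie outside windows of this length.

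In HeyA8 the hairpins differed. The p53 targets were mostly higher on the shRNA4 array than on the shRNA6 array, most by less than 1.5-fold. That the hairpins differed in these genes was known when the genes were chosen, so the counts describe the difference and are no test of it. Of 26 members kept, 25 were lower with shRNA6 than with shRNA4, beside 53% of all 12242 kept genes. Their median log2 difference was -0.35, beside -0.02 for all genes. Over all 57 member probe sets that passed, rather than 1 per gene, 45 were lower and 12 higher, beside 53.1% of all probe sets lower, with a median of -0.32. A gene was kept when at least 1 of the compared arrays was above its own median. EDA2R passed only through shRNA4, and without it 24 of 25 members were lower. PLK3 was the exception, at a log2 difference of 0.02. These differences are ratios of signal plus a pseudocount of 12.6, which understates those of dim genes.

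**Figure D1:**
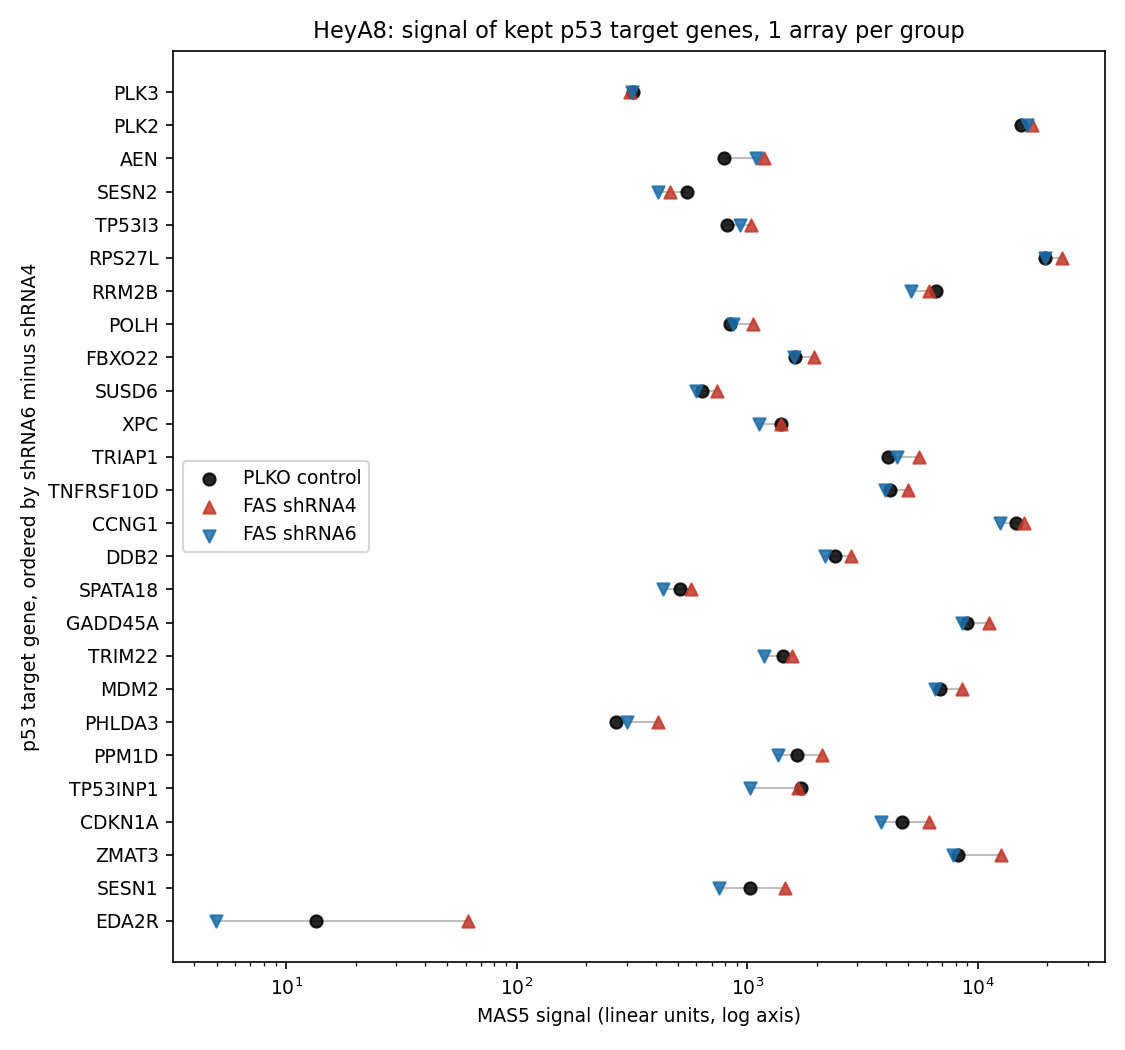
MAS5 signal (x axis, linear units on a log scale) of the 26 kept p53 target genes (y axis) on the 3 HeyA8 arrays, where each symbol is 1 array and each grey line spans the 3 values of a gene. The shRNA4 symbol is the rightmost for 22 genes and the shRNA6 symbol the leftmost for 18.

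Against the control array that both hairpins share, the members lay on different sides. With shRNA4, 22 of 26 members were above the control and 4 below, beside 46.6% of 12175 genes below, with a median log2 ratio of 0.27 beside 0.03 for all genes. With shRNA6, 7 of 25 were above and 18 below, beside 48.8% of 12152 genes below, with a median of -0.08 beside 0.01. Since both use the same control, these counts are not independent of each other, whereas the direct difference between the hairpin arrays does not involve it. Over the 3 HeyA8 arrays the highest signal was on the shRNA4 array for 22 of 26 members, beside 39.0% of 12573 genes, and on the shRNA6 array for 0 members, beside 30.4%.

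Few of these differences were large. At least 2-fold apart were 1 of 26 members with shRNA4 (4.76% of all genes), 0 of 25 with shRNA6 (4.22% of all genes) and 1 of 26 between the hairpins (5.01% of all genes), which was the dim gene EDA2R both times. These shares are near the background. At 1.5-fold, 6 of 26 members were lower with shRNA6 than with shRNA4, beside 7.16% of all genes: CDKN1A, PPM1D, SESN1, TP53INP1, ZMAT3 and EDA2R.

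**Figure D2:**
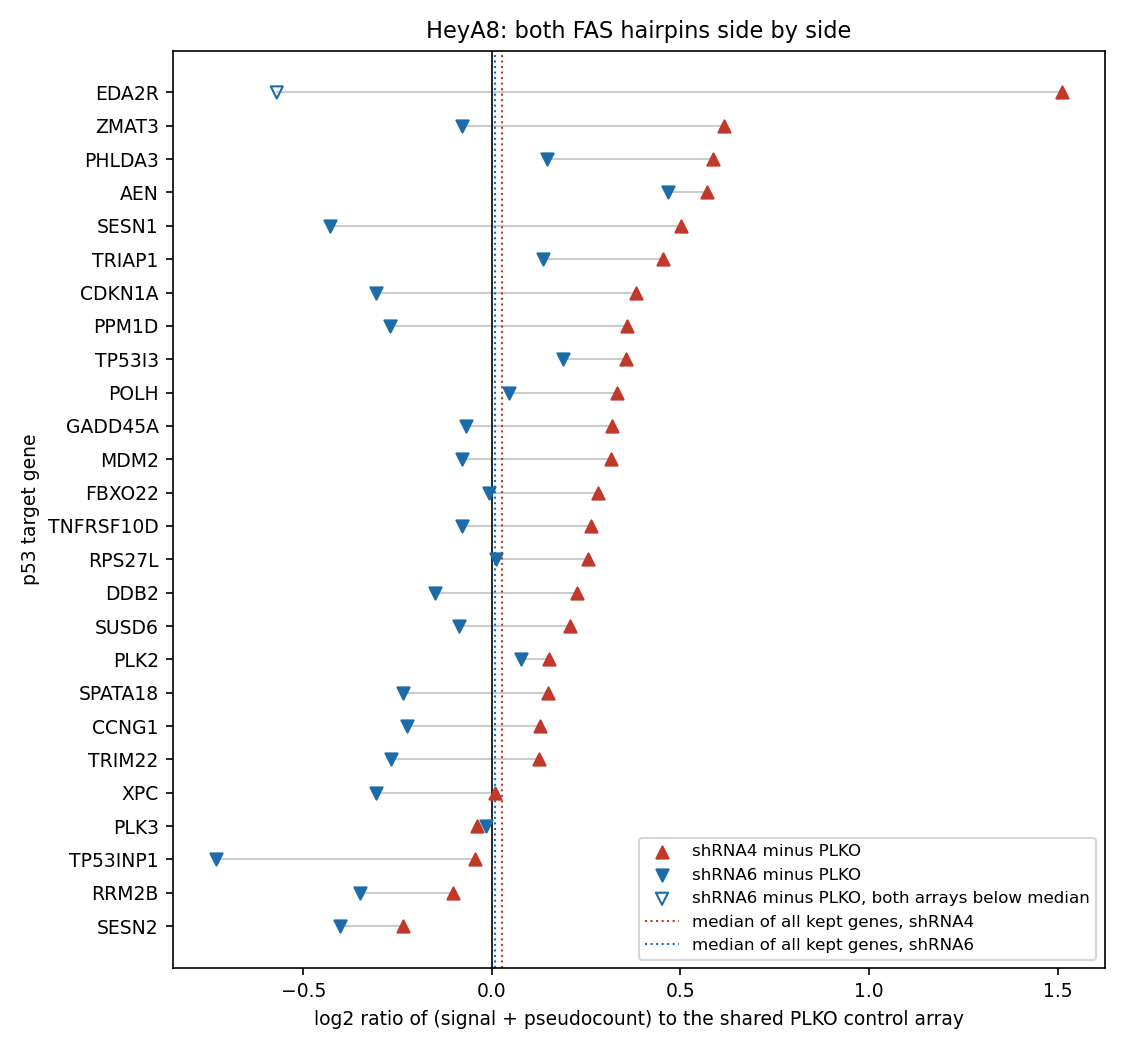
Log2 ratio of signal plus pseudocount to the shared PLKO control array (x axis) for each p53 target gene (y axis), shRNA4 as upward and shRNA6 as downward triangles, with the medians of all kept genes as dotted lines. ZMAT3 spans from -0.08 to 0.62 and SESN1 from -0.43 to 0.50, while PLK3 has both symbols near 0.

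In what follows HeyA8 signals are given in the order control, shRNA4, shRNA6, and ratios to the control as shRNA4, then shRNA6. Among the genes of arrest and growth control, CDKN1A encodes p21, the inhibitor of cyclin-dependent kinases through which p53 halts the cell cycle. Its signal was 4689.6, 6111 and 3787. The control thus lay between the hairpins, at log2 ratios of 0.38 and -0.31, and the shRNA6 signal was 62.0% of the shRNA4 signal. GADD45A, a stress-induced protein that holds cells before mitosis, was at 8951, 11171 and 8529. Its shRNA4 array stood apart at a log2 ratio of 0.32, and shRNA6 was at -0.07. PLK2, a polo-like kinase induced by p53 and by serum, was at 15462, 17188 and 16299.5. PLK3, a related stress kinase, was at 318, 309 and 315. These kinases thus differed little between the 3 arrays, but other probe sets of PLK3 gave -0.69 and 0.90 with shRNA4.

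The feedback genes, which act back on p53 itself, had the same order of arrays throughout. MDM2 was at 6859, 8541 and 6490.4, log2 ratios of 0.32 and -0.08. Of its 10 probe sets, the next in signal gave 0.31 and -0.06, and 3 dimmer ones were higher with shRNA6 than with shRNA4. PPM1D, the phosphatase WIP1 that switches off p53 and the damage kinases, was at 1649.9, 2117 and 1365, log2 ratios of 0.36 and -0.27. Its other probe set was dim, and there the control was highest and shRNA4 lowest, with -0.49 and -0.18. CCNG1, cyclin G1, which directs a phosphatase to MDM2, was at 14579, 15923 and 12478, with 78.4% of the shRNA4 signal left on the shRNA6 array. FBXO22, part of a ubiquitin ligase that acts on methylated p53, was at 1603, 1950.3 and 1594. All 4 were highest with shRNA4 and lowest with shRNA6, FBXO22 by a narrow margin to the control (-0.01), and its other probe sets were between -0.33 and 0.34 in the direct hairpin difference.

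The DNA repair genes were lower with shRNA6 than with shRNA4 in 4 of 4 cases, by log2 differences between -0.38 and -0.25. DDB2, which recognises ultraviolet damage and carries the exact site shown above, was at 2413, 2822 and 2173. XPC, its partner in damage recognition, was at 1397, 1406 and 1126. For XPC the control and shRNA4 were nearly alike (0.01) and shRNA6 was apart (-0.31). POLH, a polymerase that copies past lesions, was at 839.8, 1060.0 and 867, with shRNA4 apart from the other arrays. Of its 6 probe sets 3 were higher with shRNA6 than with shRNA4, so its direction depends on the probe set. RRM2B, the p53-induced subunit of ribonucleotide reductase that supplies nucleotides for repair, was at 6561, 6112 and 5146, the control being highest.

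Of the 4 kept redox and metabolism genes SESN1 had the widest span. SESN1 and SESN2 encode sestrins, which restrain the growth kinase mTORC1 under stress. SESN1 was at 1023, 1452 and 756, log2 ratios of 0.50 and -0.43, and the shRNA6 signal was 52.1% of the shRNA4 signal. SESN2, which also answers to the integrated stress response, was lower than the control on both arrays, at 548, 463 and 412, though its other probe set gave 0.22 with shRNA4. TP53I3, an oxidoreductase linked to reactive oxygen in apoptosis, was higher than the control on both arrays, at 813, 1043 and 928. SPATA18, which acts in the clearance of damaged mitochondria, was at 512, 569 and 433.

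GDF15, a secreted stress cytokine, was read by a dim probe set in HeyA8, at 17.8, 7.16 and 2.95, all below the array medians. Its bright probe set, marked as cross-hybridising and thus not used for the gene, was at 709, 356 and 395, lower on both hairpin arrays. GDF15 and SESN2 also answer to the integrated stress response. Other genes of that response had medians of -0.12 and -0.05 against the control, with 11 of 19 below 0 with each hairpin. The largest ratio with shRNA4 was that of DDIT4, an inhibitor of mTORC1, at -1.48, with -0.86 for shRNA6. The part of this response in the values of SESN2 and GDF15 was not tested.

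Of the apoptosis and survival genes 9 of 9 kept members were lower with shRNA6 than with shRNA4. ZMAT3, an RNA-binding protein and a growth-suppressing p53 target, was at 8227, 12616 and 7780.1. The shRNA4 array stood well apart, and its 5 probe sets gave hairpin differences between -0.71 and -0.50, all of one sign. TP53INP1, which promotes apoptosis and autophagy, was at 1714, 1662 and 1027. Here shRNA6 was the array apart, at a log2 ratio of -0.73 to the control. AEN, a nuclease that acts in apoptosis, was at 790.1, 1178 and 1096, higher than the control on both hairpin arrays (0.57 and 0.47).

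PHLDA3, which holds back the survival kinase AKT, was at 269.8, 412 and 299.7, but its other probe set gave 0.02 and -0.07. TRIAP1, a small survival protein, was at 4060.1, 5570.2 and 4462. RPS27L, a ribosomal protein paralog that also acts on MDM2 and whose sequence resembles that of RPS27, was at 19481, 23265 and 19625. By the probe set used for each, these genes shared a high shRNA4 value and an shRNA6 value within a log2 ratio of 0.15 of the control. For RPS27L another probe set gave 0.26 and 0.05, but a further one gave -0.16 and -0.28. SUSD6, a growth suppressor, was at 637, 738 and 599.

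The p53-regulated receptors were TNFRSF10D, TNFRSF10C and EDA2R. TNFRSF10D, a decoy receptor that binds the death ligand TRAIL without passing on a death signal, was at 4158, 4989.8 and 3938. Its dimmer probe set gave 0.28 and 0.29, a hairpin difference of 0.01. TNFRSF10C, another TRAIL decoy, was read by a probe set below the array median on all 5 human arrays, between 3.79 and 37.5, while a cross-hybridising one was above it on 3. EDA2R, a receptor for ectodysplasin, was at 13.4, 61.6 and 4.94, of which only the shRNA4 value exceeded its array median, by little (60.4), so its ratio of 1.51 rests on dim signals. CDIP1, a pro-apoptotic protein, was below the medians in HeyA8 at 28.0, 2.96 and 34.2. TRIM22, an antiviral protein induced by both p53 and interferon, was at 1430.5, 1560.0 and 1185.

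TRIM22 was set beside 20 interferon-stimulated genes. Of those kept in HeyA8, 10 of 13 were below the control with shRNA4 and 13 of 13 with shRNA6, with medians of -0.38 and -0.64. TRIM22 itself had log2 ratios of 0.12 and -0.27. The part of the interferon genes in its values was not tested.

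**Figure D3:**
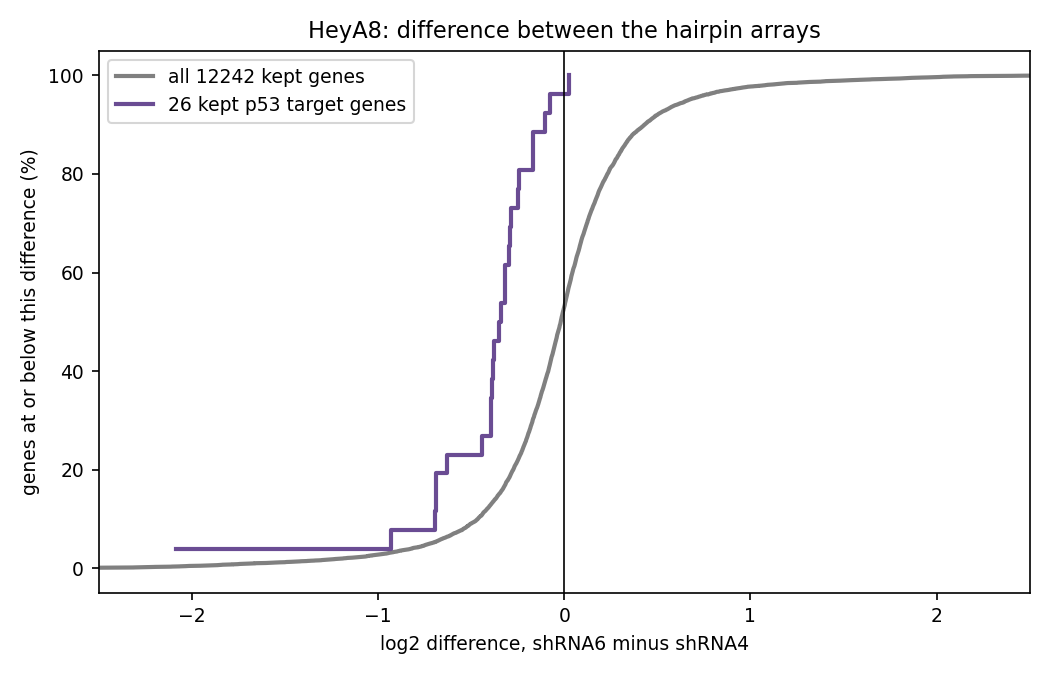
Share of genes (y axis, %) at or below a given log2 difference between the HeyA8 hairpin arrays, shRNA6 minus shRNA4 (x axis), for 26 kept p53 target genes and all 12242 kept genes. The curve of the p53 targets lies to the left, with 25 of 26 below 0 beside 53% of all genes.

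The difference between the hairpins was also fitted with limma over 13936 genes and all 5 human arrays, with a cell line term and an effect for each hairpin. The shRNA6 effect was shared by HeyA8 and HepG2, and 1 residual degree of freedom remained beside 5.33 prior ones. Of 28 members 27 had a lower shRNA6 than shRNA4 effect, with a median of -0.33. The share of all genes with a lower shRNA6 effect was not counted for this fit. The largest among the members above the median on all 5 arrays was SESN1, at -0.83 ± 0.17 (SE), with an adjusted p of 0.333 by limma. CDKN1A was at -0.76 ± 0.14 (adjusted p of 0.302 by limma), ZMAT3 at -0.71 ± 0.11 (adjusted p of 0.243 by limma) and PPM1D at -0.57 ± 0.14 (adjusted p of 0.348 by limma). An adjusted p of 0.05 was reached by 0 of 13936 genes in limma (0%), so by no member. At an unadjusted p below 0.05 were 14 of 28 members, beside 1191 of all genes (8.55%). CDIP1, which is among these 14, was the exception in direction at 1.58 ± 0.37, from dim HeyA8 signals. Its other probe set, also dim in HeyA8, gave -0.47 between the hairpin arrays.

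The medians of other genes of the pathway were nearer to 0. Of 23 kept p53 regulators, which include kinases, acetylases and ubiquitin enzymes acting on p53, 14 were lower with shRNA6 than with shRNA4, with a median of -0.02. The largest differences were in the deacetylase SIRT1, at 0.62, and the checkpoint kinase CHEK1, at 0.50, both higher with shRNA6. MDM4, the partner of MDM2 that binds and masks p53, was at 1796, 1819 and 1864. Of 27 other p53 targets, mostly apoptosis and adhesion genes, 17 were lower with shRNA6 than with shRNA4, with a median of -0.12. Among them TGFA, a growth factor, and TP53AIP1, a mitochondrial apoptosis protein, were each at 0.58. SFN, a cell cycle inhibitor, was at 0.42, and FAS at -0.46.

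p21 is known to silence cell cycle genes through the DREAM repressor complex. Of 25 such genes 11 were lower and 14 higher with shRNA6 than with shRNA4, a median of 0.01, although CDKN1A was lower. The largest difference was MYBL2, a cell cycle transcription factor, at -0.32. Both hairpins were alike for RRM2, at 0.31 each against the control. The immediate-early genes, among which PLK2 and BTG2 are sometimes counted, had 8 of 16 kept genes lower with shRNA6, with EGR1 at 1.39 and FOS at 1.01.

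In HepG2, where only shRNA6 was used, the members were slightly lower than in the control. Of 28 kept members 20 were below 0, beside 51.7% of all 12167 genes, with a median of -0.09 beside -0.01. Signals are given as control, then shRNA6. At least 2-fold apart were 0 of 28 members (5.22% of all genes). The arrest genes were lower in 4 of 4 cases, although the other probe sets of PLK3 gave 0.35 and -0.37. CDKN1A was at 1901 and 1262, 66.4% of the control and a log2 ratio of -0.59, the lowest of the kept members. GADD45A was at 4195 and 3214, a log2 ratio of -0.38. TNFRSF10D, the TRAIL decoy, was at 1191 and 894, a log2 ratio of -0.41.

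By median log2 ratio the repair (-0.09) and feedback genes (-0.12) were closer to their control than the arrest genes (-0.31), but not gene by gene. XPC was at 1324 and 1062 (-0.31) and CCNG1 at 13129 and 10843 (-0.28), both further from it than PLK2 (-0.22) and PLK3 (-0.24). DDB2 was at 1979.5 and 1868 (-0.08). POLH was at 472 and 459 (-0.04), but its other probe sets gave values between -1.40 and -0.09. MDM2 was at 8092 and 8122, a log2 ratio of 0.01, and PPM1D at 2773 and 2689. Other probe sets of MDM2 above both array medians gave values between -0.44 and 0.51. SESN1 (1544 and 1514), ZMAT3 (3802 and 3506) and AEN (1328 and 1249.8) were also near their control, with log2 ratios between -0.12 and -0.03. CDKN1A and MDM2, both classic readouts of p53, thus had different ratios in HepG2 on these arrays, by the probe set used for each gene.

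Higher in HepG2 with shRNA6 was TRIM22, at 132 and 218, a log2 ratio of 0.67. Interferon-stimulated genes were above 0 in 10 of 12 cases there, with a median of 0.32, IFIT1 at 1.57 and OASL at 0.89, both of which exceeded the array median with shRNA6 only, and the part of these genes in TRIM22 was not tested. SPATA18 was at 446 and 552, a log2 ratio of 0.30, and GDF15 at 69.6 and 90.0, while its bright cross-hybridising probe set was at 7461 and 6668. CDIP1 was at 1545 and 1758. Of 18 integrated stress response genes 14 were below 0, with a median of -0.17 and ASNS, which makes asparagine, at -0.60. The immediate-early genes were below 0 in 14 of 15 cases, with a median of -0.34, and their part in the arrest genes was not tested. Of 25 regulators 15 were below 0 (median -0.05), of 26 other targets 17 (median -0.07) and of 25 cell cycle genes 18 (median -0.05).

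In mouse liver the members were again mostly lower in the Fas knockout than in the wild type, with 1 array each. Of 22 kept members 16 were below 0, beside 52.7% of all 12047 genes, with a median of -0.20 beside -0.02. Over all 42 member probe sets that passed, 27 were below 0, beside 53.8% of all probe sets, and the median was nearer to 0, at -0.09. At least 2-fold apart were 0 of 22 members (4.34% of all genes), and 4 were at least 1.5-fold lower, beside 7.63% of all genes. Those were Btg2, Gadd45a, Plk2 and Polh, of which Polh passed the filter through the wild type only. Signals are given below as wild type, then knockout. Spata18 (9.43 and 4.10) and Eda2r (34.8 and 45.4) were below both array medians and left out.

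Of the 16 members below 0, 4 were arrest genes, among them 3 of the 4 that were at least 1.5-fold lower. Btg2, an antiproliferative protein that promotes decay of messenger RNA, was at 2659 (wild type) and 1380.0 (knockout), so that 51.9% remained. Its other probe set gave a log2 ratio of -1.15, beside -0.94 for the brighter one. Gadd45a was at 365 and 235 (-0.60) and Plk2 at 531 and 299 (-0.79). Cdkn1a went the other way, at 153 and 226, a log2 ratio of 0.50, and its other probe set gave 80.3 and 211, a log2 ratio of 1.20. It was the highest of the kept members, whereas CDKN1A was the lowest in HepG2.

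**Figure D4:**
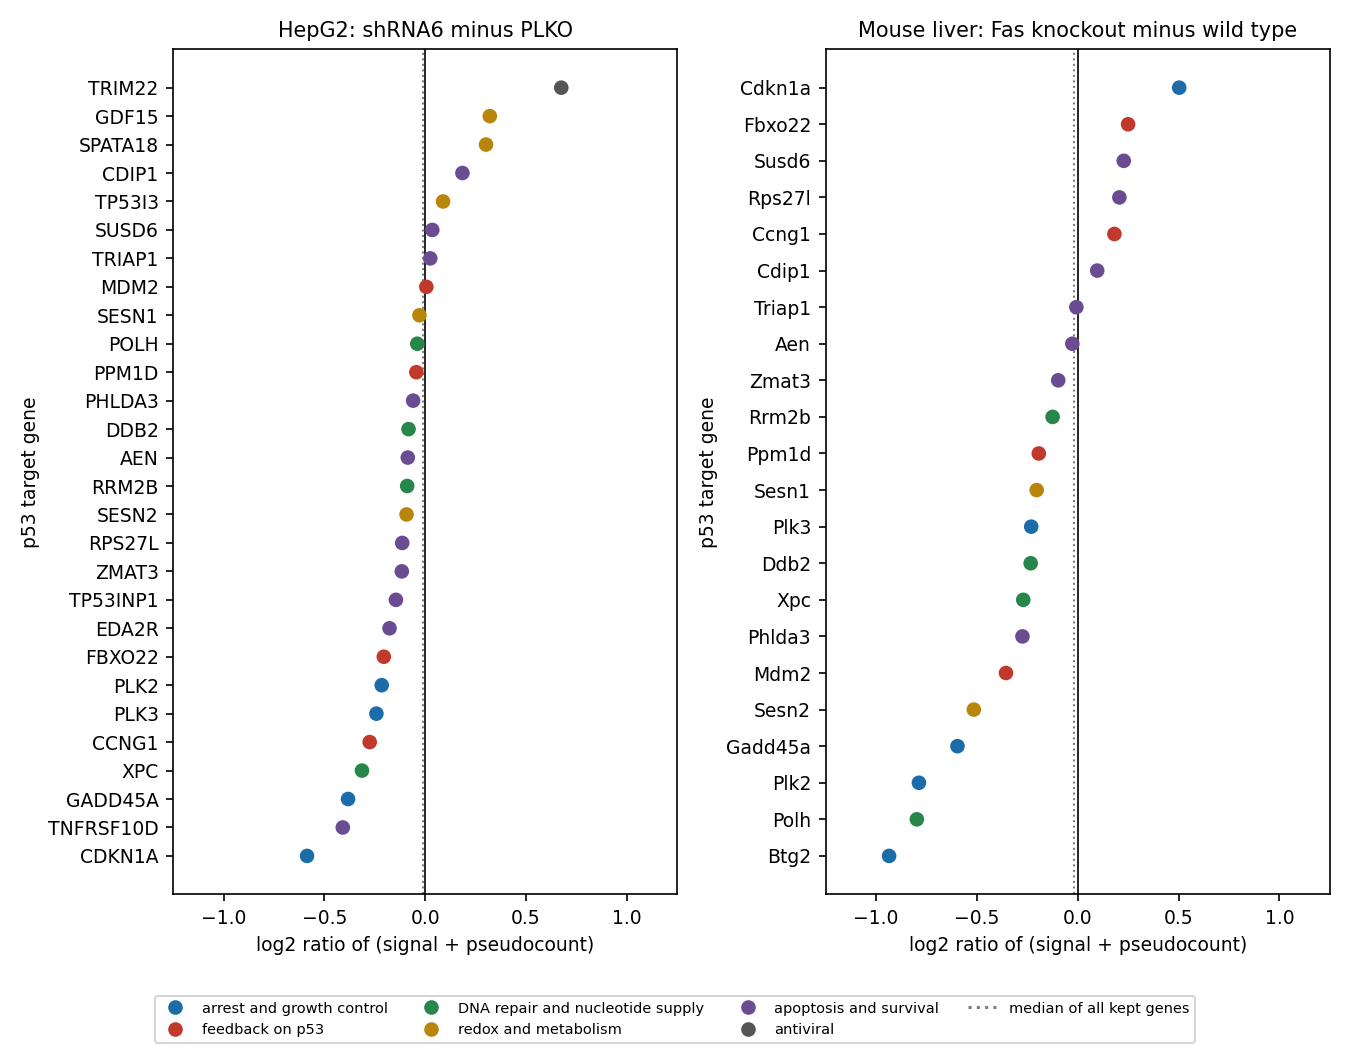
Log2 ratio of signal plus pseudocount (x axis) of each kept p53 target gene (y axis, coloured by role) in HepG2, shRNA6 minus PLKO, and in mouse liver, Fas knockout minus wild type, with the median of all kept genes dotted. CDKN1A is lowest in HepG2 at -0.59 and Cdkn1a highest in mouse liver at 0.50.

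The repair genes were below 0 in 4 of 4 cases, Xpc at 709 and 584, Ddb2 at 236 and 198 and Rrm2b at 305 and 278. Polh was at 110.2 and 54.6, above its array median in the wild type only. A cross-hybridising probe set of Polh above both medians gave -0.05. Of the feedback genes Mdm2 was at 490.4 and 379 (-0.36), although its other probe set above the median gave 0.13. Ppm1d (209 and 180.3) was lower, and Ccng1 (1486 and 1689) and Fbxo22 (3791 and 4512) were higher, although the other probe sets of Fbxo22 gave -0.37 and -0.67. Ccng1 gave the same sign with 3 of 3 probe sets. Sesn2 was at 333 and 226 (-0.52) and Sesn1 at 1119.8 and 969.6 (-0.20). Other probe sets above both medians gave -0.06 for Sesn2, and -0.01 and 0.19 for Sesn1, so the direction of Sesn1 depends on the probe set. The apoptosis genes were near the wild type, with log2 ratios between -0.27 (Phlda3) and 0.23 (Susd6), although another probe set of Aen gave -0.41. Other probe sets of Cdip1 above both medians gave -0.35 and 0.36, so its direction depends on the probe set. The mouse gene Trp53inp1, whose symbol differs from the human one and which was therefore not a member, was at 9189 and 7546, a log2 ratio of -0.28.

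Other gene lists differed in the same pair of livers. Immediate-early genes were below 0 in 16 of 17 cases, with a median of -0.74 and Fos at -2.04, beside the lower Btg2, Gadd45a and Plk2, and their part in these was not tested. Summed signals of marker lists in wild type and knockout were 8489 and 6884 for 6 measured immune markers and 4727 and 3808 for 4 endothelial ones. They were 12017 and 11274 for 4 stellate ones, mostly from Dcn (10665 and 10077), and 369 and 134 for 3 biliary ones. Within these lists the stellate marker Des was higher in the knockout, at 57.6 and 92.8. So were the biliary Krt19 (24.5 and 70.6) and the immune Cd3e (32.4 and 41.9), both from signals below the array medians. The summed signals of 2 red blood cell markers were higher in the knockout, at 1318 and 1850. The 7 measured hepatocyte markers summed to 181634 and 184256. Whether these shifts bear on the members was not tested. Of 23 regulators 18 were below 0 (median -0.11), with Chek1 at -1.55 from dim signals. Of 21 other targets 14 were below 0 (median -0.20), with Lif at -1.66 from dim signals and Atf3 at -1.39. Of 15 kept cell cycle genes 9 were above 0 (median 0.31), Mki67 at 1.10 and Cdc20 at 0.93, of which 6 were above the median on 1 array only.

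The common effect of FAS knock-down over both cell lines was fitted with limma, with the cell line as a term and 2 residual degrees of freedom. Of 28 members 14 were above and 14 below 0, with a median of -0.00, and the share of all genes below 0 was not counted. The largest effects among members above the median on all 5 arrays were TP53INP1 at -0.28 ± 0.20 (SE) and AEN at 0.26 ± 0.16 (SE), both with an adjusted p of 0.991 by limma. In this limma fit 0 of 13936 genes passed (0%). At an unadjusted p below 0.05 were 568 genes (4.08%) and 0 of the 28 members. In a fit of each line's own effect, HeyA8 had both hairpins and HepG2 shRNA6 only, so hairpin and cell line cannot be told apart. With shRNA6 alone the member medians against the control were -0.08 in HeyA8 and -0.09 in HepG2. The difference of the knock-down effect between HepG2 and HeyA8, fitted with 1 residual degree of freedom, was below 0 for 21 of 28 members. The share of all genes below 0 was not counted for it. The test of that difference called 0 of 13936 genes by limma (0%), with 613 genes (4.4%) and 0 members at an unadjusted p below 0.05. For CDKN1A it was -0.62 ± 0.43 (SE), with an adjusted p of 0.999 by limma.

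The log2 differences of the members spanned from -4.43 to 5.26 between the control cells of the lines, a wider range than with either hairpin. Of 28 kept members 15 were lower in HepG2, beside 47.3% of all genes, and 12 were at least 2-fold apart between the HepG2 and the HeyA8 control, 5 higher and 7 lower in HepG2, beside 39.6% of all 13072 genes. This share, 42.9%, is near the background. PLK2 was at 15462 in HeyA8 and 704 in HepG2, a log2 difference of -4.43. TRIM22 was at 1430.5 and 132 (-3.32) and RRM2B at 6561 and 1059 (-2.62). TNFRSF10D was at 4158 and 1191 (-1.79), although its dimmer probe set gave 0.42. CDKN1A was at 4689.6 and 1901 (-1.30), with ZMAT3 (-1.11) and GADD45A (-1.09) lower in HepG2 too.

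Higher in HepG2 were CDIP1 at 28.0 and 1545 (5.26), of which the HeyA8 value was below its array median, TP53I3 at 813 and 2155 (1.39) and FBXO22 at 1603 and 3634 (1.17). EDA2R and GDF15 were higher too, from HeyA8 values below the median. The bright GDF15 probe set was at 709 and 7461. MDM2 (0.24), CCNG1 (-0.15), XPC (-0.08), DDB2 (-0.28), RPS27L (0.10) and SUSD6 (0.09) were within a log2 difference of 0.30 of equal. By role, 4 of 4 arrest genes and 4 of 4 repair genes were lower in HepG2, and 3 of 4 feedback genes were higher, by the probe set used for each gene. Other probe sets went both ways for some of these genes. Those of MDM2 above both array medians gave between -1.03 and 0.44, and those of POLH between -0.79 and 1.01. For PLK3 they gave -0.60 and 0.42, and for RPS27L -0.28 and 0.39.

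**Figure D5:**
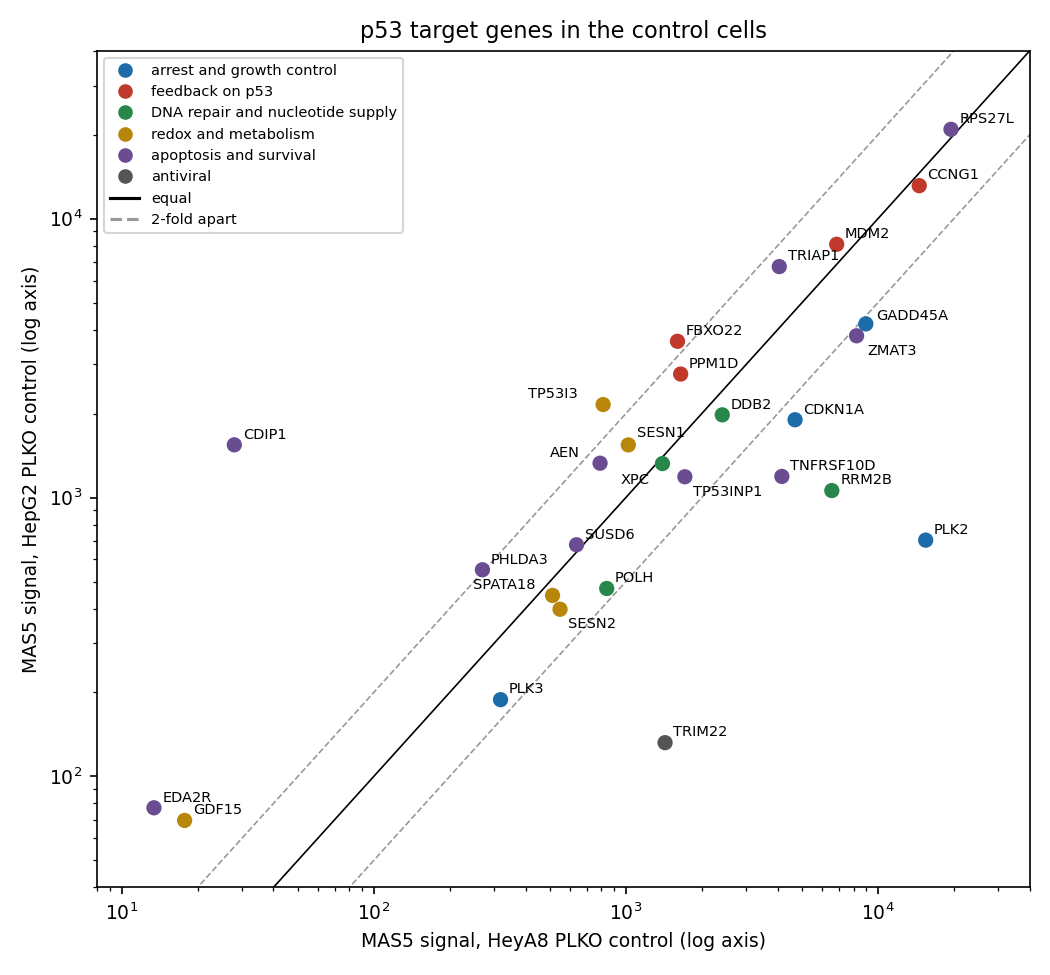
MAS5 signal of 28 kept p53 target genes in the HeyA8 (x axis) and HepG2 (y axis) PLKO control cells, both on log scales, coloured by role, with lines of equal signal and of 2-fold difference. PLK2 lies far below the line of equality and CDIP1 far above it, and MDM2, CCNG1 and RPS27L lie near it.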

How the data were processed

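Affymetrix arrays measured total RNA of 5 human and 2 mouse samples. The authors deposited linear signal intensities, for which the submitters' processing notes name MAS5 with no version or settings. Trimmed means near 500.1 (human) and 500.0 (mouse) show scaling of each array before deposit. The number of arrays limits the precision, and p-values cover only the spread among these samples. No group had a repeat array, so technical spread could not be separated from other disagreement between arrays. For the hairpin difference, the residual was how far the shRNA6 effect disagreed between HeyA8 and HepG2. For the difference between the lines, it was how far shRNA4 and shRNA6 disagreed within HeyA8. The fit of the common effect took in both disagreements.

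Control probe sets (62 human, 64 mouse) were left out. Symbols came from the platform annotation, with human ones compared by gene identifier with RefSeq (41037 matched, 0 updated). A symbol stood for 41091 human probe sets, several for 1801 and none for 11721 (mouse 34945, 932 and 9160). The brightest probe set on average stood for a gene, with _x_at sets only where there was no other. Differences are of log2 of signal plus a pseudocount, the 25th percentile of each table (12.6 and 20.5). Fits used limma 3.58.1 in R 4.3.3 with a trended prior and Benjamini-Hochberg adjustment, and were tested on simulated data. Other steps used Python 3.11.15, numpy 2.4.6, pandas 2.3.3 and matplotlib 3.10.9.

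The members, lists and tests were chosen with earlier results of these data known. All members were named, and of other lists genes from among the 4 with the largest ratio in a comparison, plus FAS. Named after their values were seen were MDM4, RRM2, Krt19 and Cd3e. Alternatives were other pseudocounts, scalings, filters, probe set rules and thresholds, fits without variance trend or cell line, and the omission of each array.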

Additional observations from a re-analysis of the deposited data

Results flagged for a closer look

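For 5 members kept in all 3 human comparisons both HeyA8 knock-down arrays lay above their control and the HepG2 knock-down array below its own. Fitted differences of the effect, HepG2 minus HeyA8, were -0.33 for PLK2, -0.23 for POLH, -0.60 for AEN, -0.43 for PHLDA3 and -0.25 for RPS27L on the log2 scale. Each had an adjusted p of 0.999 by limma, so none passed, and unadjusted values ran from 0.0627 (AEN) to 0.515 (POLH). Other probe sets differed for RPS27L (-0.16 and -0.28 in HeyA8, 0.06 in HepG2) and for POLH (-0.61 and -0.48 in HeyA8). The other probe set of PHLDA3 gave 0.02 and -0.07 in HeyA8. The HeyA8 arrays share 1 control, so their common side is not 2 independent readings. The fitted HeyA8 effect was shared by both hairpins, whereas HepG2 had shRNA6 only.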

How the results depend on the processing

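The signs of the member medians held under every scaling, pseudocount, filter and rule for reading 1 value per gene tried, in all 6 comparisons. Counting every member probe set instead turned that between the control lines, from -0.11 to 0.09 (31 above and 28 below 0). The median difference between the hairpins ran from -0.35 to -0.26, with at least 24 members lower under each. With arrays scaled to equal medians, the HepG2 median went from -0.01 to -0.12 for all genes and from -0.09 to -0.20 for the members, leaving -0.08 relative to all genes both times. It moved the share of all genes below 0 to 36.6% in HeyA8 with shRNA6 and to 69.9% in HepG2, where 15 of 25 and 24 of 28 members were below 0, and in mouse liver to 39.7%, where 14 of 22 members were.

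Counts of members at least 2-fold apart were small and moved. With a pseudocount equal to the table median they were 0 for shRNA4 against the control and 0 between the hairpins, beside 1.22% and 1.14% of all genes. With every compared array above its own median they were again 0 and 0, beside 0.99% and 0.988%. With no filter they were 3 and 2 of 29 members, beside 10.8% and 10.9% of all genes. With the mean over all probe sets they were 2 of 28 between the hairpins (SPATA18 and EDA2R), beside 3.66% of all genes. In mouse liver they were then 2 of 22 (Btg2 and Plk2), beside 3.16%. At a 1.5-fold threshold they were 3 of 26 for shRNA4, 1 of 25 for shRNA6 and 6 of 26 between the hairpins, beside 12.9%, 10.9% and 13.4% of all genes. They were 2 of 28 in HepG2, 4 of 22 in mouse liver and 19 of 28 between the control lines, beside 12.6%, 12.5% and 57.8%.

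By limma the hairpin difference called 45 genes with a pseudocount equal to the table median (ZMAT3 among them, adjusted p = 0.0439), 129 with arrays scaled to equal medians (CDIP1, adjusted p = 0.0379) and 52 with every array above its own median (ZMAT3, adjusted p = 0.0333, and CDKN1A, adjusted p = 0.0399). Over the pseudocounts, scalings, filters and probe set means tried, the adjusted p of ZMAT3 ran from 0.0333 to 0.511 and that of CDKN1A from 0.0399 to 0.535. The common effect called 2 genes with arrays scaled to equal medians, no member among them, and 0 genes without each array in turn. The causes of these shifts were not tested. No paired analysis was possible because each group held 1 array.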
